A study of Mus musculus with 26 samples.

Results

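The 38 genes described here carry the passage from G1 into S phase and the copying of DNA in arteries of angiotensin II-infused mice. They are a list of gene names, chosen with earlier results of these data known. Shares of members called therefore describe the list and are no independent evidence. All 38 were found, each with 1 gene identifier, among the 55414 identifiers shared by every count table. All 38 also passed the filter on low counts in each fit. By role they comprise 8 genes of origin licensing and the MCM helicase, 4 of helicase activation, 4 of the sliding clamp and its loader, 4 of the polymerases and primase, 2 of Okazaki fragment processing, 5 of nucleotide supply, 3 of chromatin copying, 4 G1 cyclins, 3 E2F factors and Brca1. RNA from aorta and from mesenteric arteries, which are small resistance vessels, was sequenced in 3 groups of male C57BL6J mice with floxed alleles of Sphk1, the gene of a kinase that makes sphingosine-1-phosphate. The first, called KO AngII here (n = 5 libraries in each tissue), was Sphk1f/fTagln-cre+, in which the transgelin promoter drives Cre in smooth muscle, and was given angiotensin II. The second, WT AngII (n = 4), and the third, WT sham (n = 4), were both Sphk1f/fTagln-cre-, so the controls also carry the floxed alleles, and differed in angiotensin II. Infusion was at 490 ng/kg/min for 14 days by minipump, begun at 12 to 14 weeks of age. No age was recorded for WT sham mice. The labels call both AngII groups hypertensive and WT sham normotensive. Angiotensin II and blood pressure thus differed together, and their effects cannot be told apart. Without a Cre-positive sham group, an effect of the deletion can be read only under angiotensin II. No Cre-positive group without floxed alleles was sequenced, so deletion of Sphk1 and presence of Cre cannot be told apart.

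In dividing cells, cyclin D and then cyclin E kinases free E2F factors from the retinoblastoma proteins, and E2F then drives transcription of many genes needed for S phase. CDC6 and CDT1 load the MCM helicase onto origins, CDC45 and GINS activate it, and the polymerases copy the strands on the PCNA clamp. Most smooth muscle cells of the adult arterial wall are out of the cell cycle, and angiotensin II is known as a growth stimulus for them.

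Libraries held 23.49 to 32.25 M gene counts in the aorta and 17.54 to 30.05 M in mesenteric arteries (M stands for mega). Values below are CPM, counts per M of the library's total after edgeR's scaling for composition. That scaling was done within each tissue, so CPM of aorta and mesenteric arteries are not on exactly the same scale. Sphk1 itself averaged 2.51 ± 0.701 CPM in KO AngII, 18.7 ± 5.94 in WT AngII and 4.62 ± 1.26 in WT sham aortas (SD, n = 5, 4 and 4). In mesenteric arteries it averaged 3.92 ± 0.904, 13.9 ± 3.28 and 8.58 ± 0.994 CPM in the same groups (SD, n = 5, 4 and 4). Smooth muscle markers were abundant in every library, with a sum over 10 markers of 19000 to 40300 CPM in the aorta and 25000 to 52600 CPM in mesenteric arteries. Mesenteric libraries also held 29.3 to 85200 CPM of 10 gut and pancreas markers. Mesenteric KO AngII replicate 3 stood apart: its 10 B and T cell markers summed to 563 CPM, against 11.2 to 73.9 CPM in the other 4 libraries of its group, and its macrophage markers to 2280 CPM, against 326 to 822 CPM. Mesenteric WT AngII replicate 1 held 148 CPM of the B and T cell markers, against 7.58 to 13.5 CPM in the other 3 of its group. Reads that did not align made up 11.4, 14.7 and 14.2% of the tables of mesenteric KO AngII replicates 2, 3 and 4 and 12.0% of that of WT AngII replicate 1. The remaining 9 mesenteric libraries, all 4 of WT sham among them, had 0.855 to 2.52%. The part of this difference in the mesenteric values was not tested. Results in mesenteric arteries are given with and without KO AngII replicate 3 and WT AngII replicate 1.

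Promoter windows, which run from 250 bases before to 50 after a start, were found for 31 of the 38 genes in RefSeq's table for GRCm38.p6. An E2F word (TTTCCCGC, TTTCGCGC, TTTGCCGC or TTTGGCGC, on either strand) was present in 12 of the 31 (38.7%), against 9 of 29 other replication factors (31.0%) and 2.6% of 27025 genes with a window. The word was held by 5 of 15 members that rose in the WT aorta after angiotensin II, by 6 of 14 with no call and by 1 of the 2 that fell. These shares were not set against each other in a test. In 21 mitotic genes the word was found in 1 (4.76%), while the CHR words TTTGAA or TTCGAA were found in 81.0% of those genes, in 22.6% of the members and in 21.7% of all genes. These are matches of letters on either strand, words may overlap, and no match says only that the letters were not in the window.

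**Figure D1:**
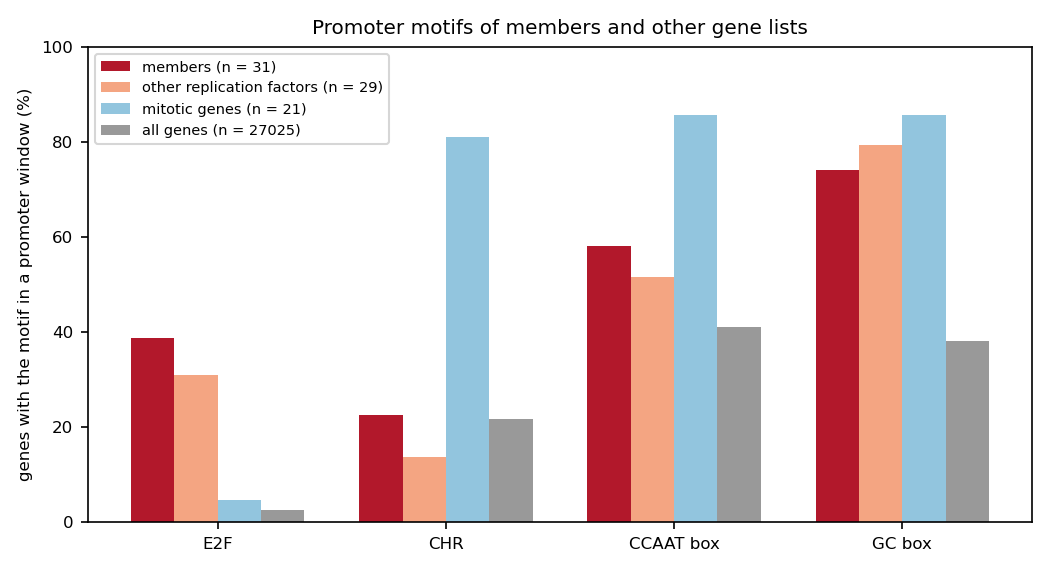
Share of genes (%, vertical axis) with a motif in a promoter window, for the 31 members, 29 other replication factors, 21 mitotic genes and all 27025 genes (bars). The E2F bar reaches 38.7% for the members, 31.0% for the other replication factors and 2.6% for all genes, and the CHR bar 81.0% for the mitotic genes.

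The promoters below are shown because they span the responses in the aorta: Mcm6, Mcm5 and Uhrf1 rose and hold the word, Ccne1 rose among the most and holds none, and Pola1 and Prim1 fell. Capitals mark E2F words, overlapping in Mcm6 and Mcm5, and each sequence runs 5′ to 3′ in the direction of the gene. They lie at chr1:128359656-128359955 (Mcm6, minus strand), chr8:75109259-75109558 (Mcm5, plus strand), chr17:56304063-56304362 (Uhrf1, plus strand), chr7:38107441-38107740 (Ccne1, minus strand), chrX:93632106-93632405 (Pola1, minus strand) and chr10:128014965-128015264 (Prim1, plus strand).
Mcm6: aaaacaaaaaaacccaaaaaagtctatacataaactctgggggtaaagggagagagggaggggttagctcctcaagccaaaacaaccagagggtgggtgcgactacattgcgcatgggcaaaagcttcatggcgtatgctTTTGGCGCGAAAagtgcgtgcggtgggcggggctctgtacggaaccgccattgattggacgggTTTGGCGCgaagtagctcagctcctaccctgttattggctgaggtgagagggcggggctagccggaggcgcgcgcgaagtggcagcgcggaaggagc
Mcm5: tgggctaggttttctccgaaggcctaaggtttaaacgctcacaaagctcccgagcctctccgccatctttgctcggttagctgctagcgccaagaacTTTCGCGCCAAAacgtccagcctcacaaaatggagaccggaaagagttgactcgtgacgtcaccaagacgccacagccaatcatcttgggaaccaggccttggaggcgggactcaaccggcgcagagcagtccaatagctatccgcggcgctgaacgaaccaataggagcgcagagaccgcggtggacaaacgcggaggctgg
Uhrf1: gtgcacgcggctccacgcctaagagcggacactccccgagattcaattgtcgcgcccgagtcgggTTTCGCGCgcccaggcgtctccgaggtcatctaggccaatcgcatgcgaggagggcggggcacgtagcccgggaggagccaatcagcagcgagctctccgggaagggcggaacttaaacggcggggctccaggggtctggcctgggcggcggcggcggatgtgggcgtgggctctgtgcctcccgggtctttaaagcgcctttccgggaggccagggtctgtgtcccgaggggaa
Ccne1: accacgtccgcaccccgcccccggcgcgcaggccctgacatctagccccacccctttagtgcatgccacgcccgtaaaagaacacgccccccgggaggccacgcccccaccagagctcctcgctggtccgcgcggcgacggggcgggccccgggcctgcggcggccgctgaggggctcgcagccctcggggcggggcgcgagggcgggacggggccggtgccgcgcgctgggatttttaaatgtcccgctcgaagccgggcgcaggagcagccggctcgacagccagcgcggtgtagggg
Pola1: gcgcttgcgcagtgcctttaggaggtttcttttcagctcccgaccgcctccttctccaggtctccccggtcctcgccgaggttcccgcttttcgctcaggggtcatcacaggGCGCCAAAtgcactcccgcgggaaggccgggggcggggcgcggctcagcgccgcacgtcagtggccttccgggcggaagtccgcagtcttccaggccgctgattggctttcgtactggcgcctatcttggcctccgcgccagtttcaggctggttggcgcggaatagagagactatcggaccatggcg
Prim1: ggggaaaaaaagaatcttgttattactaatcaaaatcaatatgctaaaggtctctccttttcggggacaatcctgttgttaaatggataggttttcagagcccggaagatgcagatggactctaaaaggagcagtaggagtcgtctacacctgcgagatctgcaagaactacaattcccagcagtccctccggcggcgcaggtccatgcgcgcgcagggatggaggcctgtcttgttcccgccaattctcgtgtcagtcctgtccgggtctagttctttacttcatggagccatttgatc
The words start 110, 106 and 47 bases before the start of Mcm6, 153 and 149 bases before that of Mcm5, 185 before that of Uhrf1 and 138 before that of Pola1.

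In the aorta of WT mice, angiotensin II raised 18 of the 38 genes and lowered 2, where 14.7% of the 16863 genes tested rose and 10.8% fell (edgeR quasi-likelihood test, Benjamini-Hochberg adjusted p below 0.05, n = 4 and 4). The median log2 fold change of the members was 0.39 and that of all genes -0.0005. Every E2F factor, 3 of 4 G1 cyclins, 4 of 5 nucleotide supply genes and 2 of 3 chromatin copying genes rose, against 2 of 8 licensing and MCM genes, 1 of 4 helicase activators and 0 of 4 clamp and loader genes. Values did not overlap for 21 members, 19 higher and 2 lower in every WT AngII library, where 12.2% of all genes were so separated upwards and 11.7% downwards. In a bulk sample, fewer cells of a type and less RNA per cell cannot be told apart.

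Among the regulators, Ccne1, which encodes cyclin E1, the partner of CDK2 at S phase entry, was measured at 1.29, 1.32, 1.01 and 1.37 CPM in the WT AngII aortas, against 0.379, 0.184, 0.289 and 0.286 CPM in WT sham aortas. The groups were far apart, with a log2 fold change of 2.10 ± 0.26 (SE; edgeR adjusted p = 5.88e-05). Ccne2, the gene of cyclin E2, rose by 1.15 ± 0.28 (edgeR adjusted p = 0.0069). The D cyclins open G1 with CDK4 and CDK6. Ccnd1 rose by 0.62 ± 0.17 (edgeR adjusted p = 0.0196), with 38.8, 33.4, 35.3 and 61.4 CPM in WT AngII aortas and 32.9, 25.9, 27.6 and 23.5 CPM in WT sham aortas. Every WT AngII value lay above every WT sham value, although the margin was narrow, and the call was lost without WT sham replicate 2 or 4 (edgeR adjusted p of up to 0.0623). Ccnd2, the most abundant member per length, had 256, 266, 231 and 252 CPM in WT AngII aortas, against 274, 294, 263 and 256 CPM in WT sham aortas. The groups overlapped, with a log2 fold change of -0.11 (95% interval -0.28 to 0.06; edgeR adjusted p = 0.328).

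E2f1, an activating E2F, had 9.40, 6.99, 9.26 and 6.93 CPM in WT AngII aortas, against 3.52, 3.13, 4.26 and 3.22 CPM in WT sham aortas. It rose by 1.20 ± 0.15 on the log2 scale (edgeR adjusted p = 7.08e-05). E2f2, a second activator, rose by 1.11 ± 0.33 (edgeR adjusted p = 0.0242), a call lost without WT AngII replicate 1 or 3 or WT sham replicate 1, 2 or 3, with an edgeR adjusted p of up to 0.0669. E2f8, an atypical E2F that represses E2F targets, rose by 2.40 ± 0.37 (edgeR adjusted p = 0.000335), the largest value among the members. It was measured at 1.70, 1.80, 0.976 and 2.36 CPM in WT AngII aortas, against 0.466, 0.405, 0.144 and 0.25 CPM in WT sham aortas.

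Nucleotide supply and chromatin copying showed the next group of rises. Rrm2, the regulated subunit of ribonucleotide reductase, had 7.19, 5.4, 5.50 and 6.86 CPM in WT AngII aortas, against 2.30, 2.32, 2.45 and 1.93 CPM in WT sham aortas. It had the smallest adjusted p of all members, at 1.09e-05 in edgeR, with a log2 fold change of 1.47 ± 0.15. Its partner Rrm1, the large subunit, had 27.6, 29.5, 29.2 and 34.4 CPM in WT AngII aortas, against 30.9, 25.1, 27.8 and 27.6 CPM in WT sham aortas. These values overlapped, with a log2 fold change of 0.11 (95% interval -0.06 to 0.28) with no call. Tk1, for thymidine salvage, rose by 1.30 ± 0.21, Dut, which removes dUTP, by 0.93 ± 0.14, and Tyms, thymidylate synthase, by 0.37 ± 0.12 (edgeR adjusted p = 0.000416, 0.000202 and 0.0371). The call of Tyms was lost under 5 of 8 other settings and when any library of these groups but WT AngII replicate 2 was left out, with an edgeR adjusted p of up to 0.105. Uhrf1, which reads half-methylated DNA and recruits the maintenance methyltransferase, had 4.00, 4.26, 2.42 and 3.63 CPM in WT AngII aortas, against 1.14, 1.14, 1.12 and 1.11 CPM in WT sham aortas. It rose by 1.66 ± 0.21 (edgeR adjusted p = 7.55e-05). Chaf1a, a subunit of the histone chaperone CAF-1, had 7.26, 5.85, 6.33 and 6.12 CPM in WT AngII aortas, against 4.4, 4.9, 3.93 and 4.43 CPM in WT sham aortas, with no overlap. It rose by 0.53 ± 0.14, while its partner Chaf1b, at 0.68 ± 0.30, was not called (edgeR adjusted p = 0.0099 and 0.108).

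**Figure D2:**
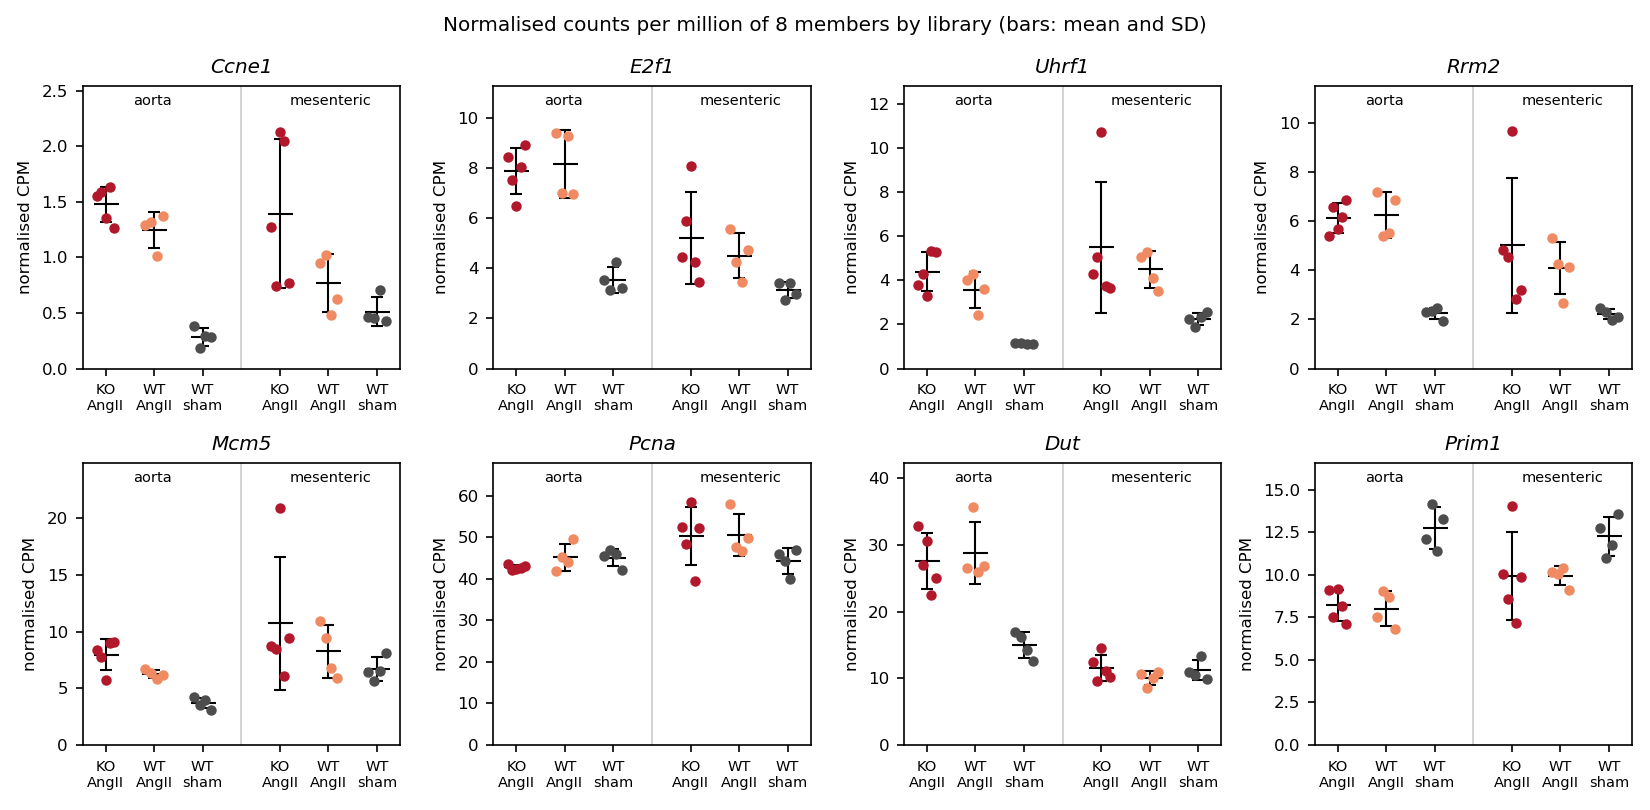
Normalised CPM (vertical axes) of 8 members in each library of KO AngII, WT AngII and WT sham mice, aorta left and mesenteric arteries right of the line, with bars for the mean and SD. In the aorta both angiotensin II groups lie above sham for Ccne1, E2f1, Uhrf1, Rrm2, Mcm5 and Dut and below it for Prim1, and 1 mesenteric KO AngII library reaches 10.7 CPM for Uhrf1 and 20.9 CPM for Mcm5.

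Of the MCM helicase subunits, Mcm5 and Mcm6 rose. Mcm5 rose by 0.76 ± 0.15, with 6.68, 6.32, 5.86 and 6.20 CPM in WT AngII aortas, against 4.19, 3.54, 3.93 and 3.11 CPM in WT sham aortas. Mcm6 rose by 0.41 ± 0.09, with 82.5, 104, 92 and 106 CPM in WT AngII aortas, against 67.1, 77.8, 74.1 and 70.9 CPM in WT sham aortas. The calls had edgeR adjusted p = 0.00213 and 0.00509. Mcm2, Mcm3, Mcm4 and Mcm7 had log2 fold changes of -0.09 to 0.25 with no call. Their intervals excluded a 2-fold change either way. The loading factors Cdc6, at 0.62 ± 0.23, and Cdt1, at 0.67 ± 0.26, just missed the threshold (edgeR adjusted p = 0.0653 and 0.0693). Of the factors that activate the helicase, Mcm10 rose by 1.96 ± 0.28 (edgeR adjusted p = 0.000169), while Cdc45, Gins1 and Gins2 had no call, at 0.29, 0.18 and 0.37. Gins2, a GINS subunit, had 3.9, 3.09, 4.56 and 2.75 CPM in WT AngII aortas, against 2.13, 3.35, 3.28 and 2.32 CPM in WT sham aortas, which overlapped.

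Neither the clamp nor its loader gave a call. Pcna, the gene of the sliding clamp, had 41.8, 45.3, 44.0 and 49.5 CPM in WT AngII aortas, against 45.5, 46.9, 45.9 and 42.1 CPM in WT sham aortas. The groups overlapped, and the 95% interval of the log2 fold change was -0.13 to 0.13. The loader genes Rfc3, Rfc4 and Rfc5 had log2 fold changes of -0.12 to 0.17 with no call. Among the polymerases Pole, the catalytic subunit of the leading strand enzyme, rose by 1.51 ± 0.21 (edgeR adjusted p = 0.000134), with 3.66, 2.57, 3.04 and 3.03 CPM in WT AngII aortas, against 1.14, 1.36, 0.939 and 0.858 CPM in WT sham aortas. Pold1, of the lagging strand enzyme, had 13, 12.1, 14.3 and 14.6 CPM in WT AngII aortas, against 13.2, 14.8, 16.1 and 16.8 CPM in WT sham aortas. The Pole groups did not overlap and the Pold1 groups did, with a Pold1 log2 fold change of -0.17 and no call.

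Both genes that fell belong to the complex that primes DNA synthesis. Prim1, the catalytic subunit of primase, had 7.53, 9.04, 8.68 and 6.79 CPM in WT AngII aortas, against 12.1, 14.1, 11.4 and 13.3 CPM in WT sham aortas. No value overlapped, and the log2 fold change was -0.67 ± 0.12 (edgeR adjusted p = 0.00107). Pola1, the catalytic subunit of polymerase alpha, had 10.5, 10.9, 7.34 and 9.33 CPM in WT AngII aortas, against 12.8, 11.3, 12.0 and 13.2 CPM in WT sham aortas. Its log2 fold change of -0.37 ± 0.12 (edgeR adjusted p = 0.0373) lost its call in 4 of 8 other settings and without WT AngII replicate 3 or 4 or WT sham replicate 1, 3 or 4, with an edgeR adjusted p of up to 0.0907. Lig1, which joins Okazaki fragments, rose by 0.30 ± 0.09 and Brca1, of DNA repair, by 1.51 ± 0.38 (edgeR adjusted p = 0.0193 and 0.00974). Lig1 had 13, 12.4, 13.6 and 12.6 CPM in WT AngII aortas, against 10.3, 10.4, 11 and 10.2 CPM in WT sham aortas. Brca1 had 0.882, 1.43, 0.904 and 1.06 CPM in WT AngII aortas, against 0.728, 0.184, 0.325 and 0.214 CPM in WT sham aortas. Neither pair of groups overlapped, and the Lig1 call was lost without WT sham replicate 4 (edgeR adjusted p = 0.0545). Fen1, the flap endonuclease, was at 0.31 ± 0.14 with no call.

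Fold changes were larger, on the median, in members of low level. Of 18 members averaging less than 5 CPM over the 13 aortic libraries, 10 rose and 0 fell, with a median log2 fold change of 1.13, where 12.7% of all such genes rose. Of the 20 at 5 CPM or more, 8 rose and 2 fell, with a median of 0.187, where 15.7% of such genes rose. Levels per kilobase of all annotated exons allow only a rough comparison of genes. On this scale Ccnd2 stood at 26.7 CPM in WT AngII and 28.9 in WT sham aortas and Pcna at 18.8 in both. Mcm6 stood at 20.6 CPM per kilobase in WT AngII and 15.5 in WT sham aortas, above the other MCM subunits, of which Mcm4 was next at 5.74 and 6.13. Brca1 was lowest, at 0.125 in WT AngII and 0.0425 in WT sham aortas.

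**Figure D3:**
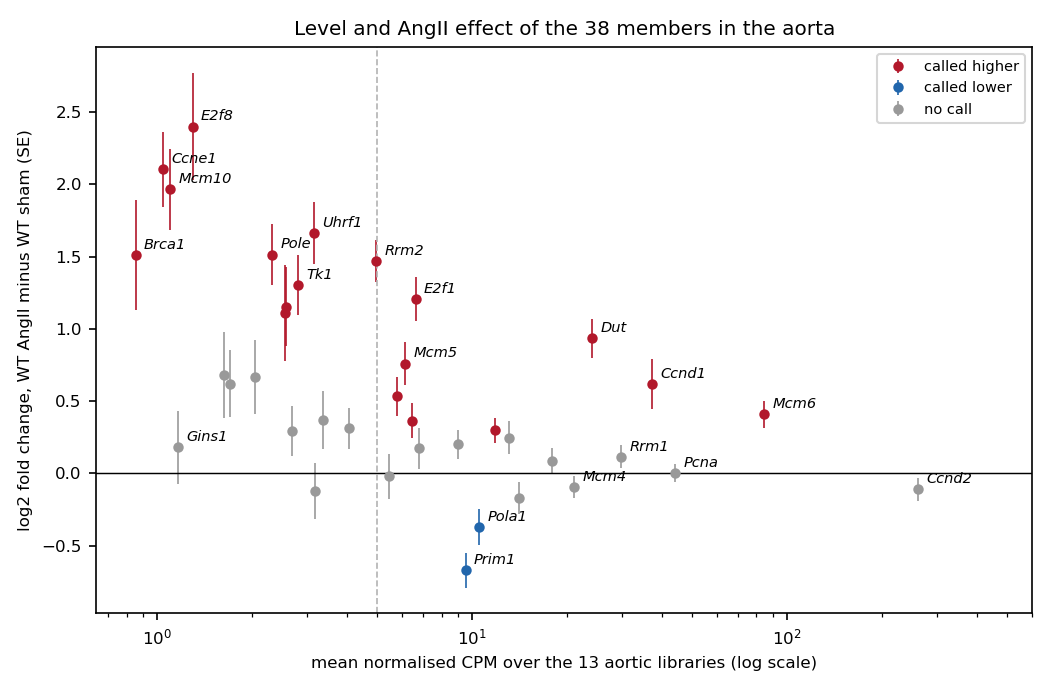
Log2 fold change (vertical axis, WT AngII minus WT sham, bars SE) against mean normalised CPM over the 13 aortic libraries (horizontal log axis), 1 point for each of the 38 genes, with the dashed line at 5 CPM. The called rises of E2f8, Ccne1 and Mcm10 lie at the low end, and Ccnd2 and Pcna at the high end lie near 0.

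Genes of related pathways outside the list are read against the 14.7% of all genes that rose. These lists too were chosen with earlier results of these data known. Of 24 mitotic genes, 23 rose in the WT aorta, with a median log2 fold change of 2.16, among them Cdk1 (2.32 ± 0.22), Top2a (2.70 ± 0.25) and Mki67 (2.35 ± 0.25), with edgeR adjusted p = 7.92e-06, 8.69e-06 and 2.84e-05. Of 38 other replication factors tested, 7 rose, a share near that of all genes, and 0 fell, led by Clspn, Dbf4 and Dna2 at 1.77 ± 0.29, 1.36 ± 0.25 and 1.02 ± 0.24 (median of the list -0.03). Of 18 other G1/S regulators 6 rose, led by Myc (1.46 ± 0.20) and Ccna2, the gene of cyclin A2 (1.79 ± 0.24). Of 6 CDK inhibitors 3 rose as well, Cdkn1a by 1.32 ± 0.093 (edgeR adjusted p = 2.08e-06), Cdkn2b and Cdkn2c. Among 16 genes of S phase repair and chromatin 6 rose, such as Chek1 (1.12 ± 0.27), and Asf1a was among those that fell (-0.28 ± 0.091). In the same libraries the 10 macrophage markers all rose, and their summed level was 950 to 1120 CPM in KO AngII, 762 to 1000 in WT AngII and 574 to 701 in WT sham aortas. B and T cell markers were near the floor, at 3.43 to 8.3, 2.36 to 9.16 and 1.73 to 5.67 CPM, with 0 of 9 tested rising. Fibroblast markers rose for 6 of 10 and smooth muscle markers fell for 3 of 10. The part of these markers in the rise of the members was not tested.

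Against the same WT sham aortas, KO AngII aortas gave 18 members higher and 1 lower, where 16.6% of all genes rose and 14.2% fell. In 18 members every KO AngII library lay above every WT sham library and in 2 below, against 16.8% and 15.5% of all genes. Members under 5 CPM gave 12 rises of 18, where 15.8% of such genes rose, and those at or above it 6 of 20, where 17% did. Since both comparisons rest on the same sham libraries, their values are given side by side and not as 2 independent results. Rrm2 was at 5.4, 6.55, 5.66, 6.16 and 6.83 CPM in KO AngII aortas, against 1.93 to 2.45 CPM in WT sham aortas, a log2 fold change of 1.44 ± 0.14 beside 1.47 in WT AngII. Uhrf1, at 3.8, 4.28, 3.30, 5.31 and 5.30 CPM in KO AngII aortas, gave 1.96 ± 0.21 beside 1.66. Ccne1, at 1.56, 1.59, 1.36, 1.63 and 1.27 CPM, gave 2.35 ± 0.25 beside 2.10. E2f1, at 8.43, 7.53, 6.47, 8.02 and 8.90 CPM, gave 1.15 ± 0.15 beside 1.20. The members near the threshold differed: Cdc6 (0.88 ± 0.22) and Fen1 (0.48 ± 0.14) were called in KO AngII (edgeR adjusted p = 0.00813 and 0.0152), while Mcm6, Lig1 and Pola1 were not (edgeR adjusted p = 0.0524, 0.0664 and 0.0502). Without WT sham replicate 2, Fen1 lost its call (edgeR adjusted p = 0.0555), as did Tyms, Ccnd1 and E2f2. Prim1, at 9.08, 7.53, 9.15, 8.15 and 7.1 CPM in KO AngII aortas, fell by 0.63 ± 0.11 on the log2 scale (edgeR adjusted p = 0.000774). Pola1, at 9.55, 8.51, 10.2, 10.5 and 10.7 CPM in KO AngII aortas, also lay below every WT sham library. In this comparison all 10 macrophage and 6 of 10 fibroblast markers rose, and 5 of 10 smooth muscle markers fell. Adipocyte markers rose for 1 of 10, B and T cell markers for 1 of 9 tested and endothelial markers for 2 of 10, with 1 falling. All 3 erythroid and marrow markers tested fell, as did 1 of 3 gut and pancreas markers. The part of these markers in the members' values was not tested.

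Setting KO AngII directly against WT AngII aortas, no member was called, and 0.00593% of all genes were (1 of 16863, by edgeR). DESeq2 and limma voom also called 0 members, where DESeq2 called 0.0237% of all genes higher and 0.0119% lower and limma voom 0% and 0.00593%. In edgeR 1 member, Mcm5, had an unadjusted p below 0.05, where 608 of all genes did. The median log2 fold change over the members was 0.01, with 20 of 38 positive. No member had all its KO AngII libraries above or below all WT AngII libraries, where 0.48% and 0.486% of all genes did. Mcm5, at 8.34, 7.72, 5.73, 8.96 and 9.10 CPM in KO AngII aortas and 6.68, 6.32, 5.86 and 6.20 CPM in WT AngII aortas, had a log2 fold change of 0.35 ± 0.14 (edgeR adjusted p = 0.981). For all 38 members the 95% interval lay within a 2-fold change either way, as it did for 83.0% of all genes tested. Pcna was nearly level across KO AngII aortas, at 43.6, 42.1, 42.3, 42.7 and 43.1 CPM, against 41.8 to 49.5 CPM in WT AngII aortas. Rrm2 had an interval of -0.31 to 0.25, Uhrf1 of -0.10 to 0.70 and Ccne1 of -0.22 to 0.70.

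**Figure D4:**
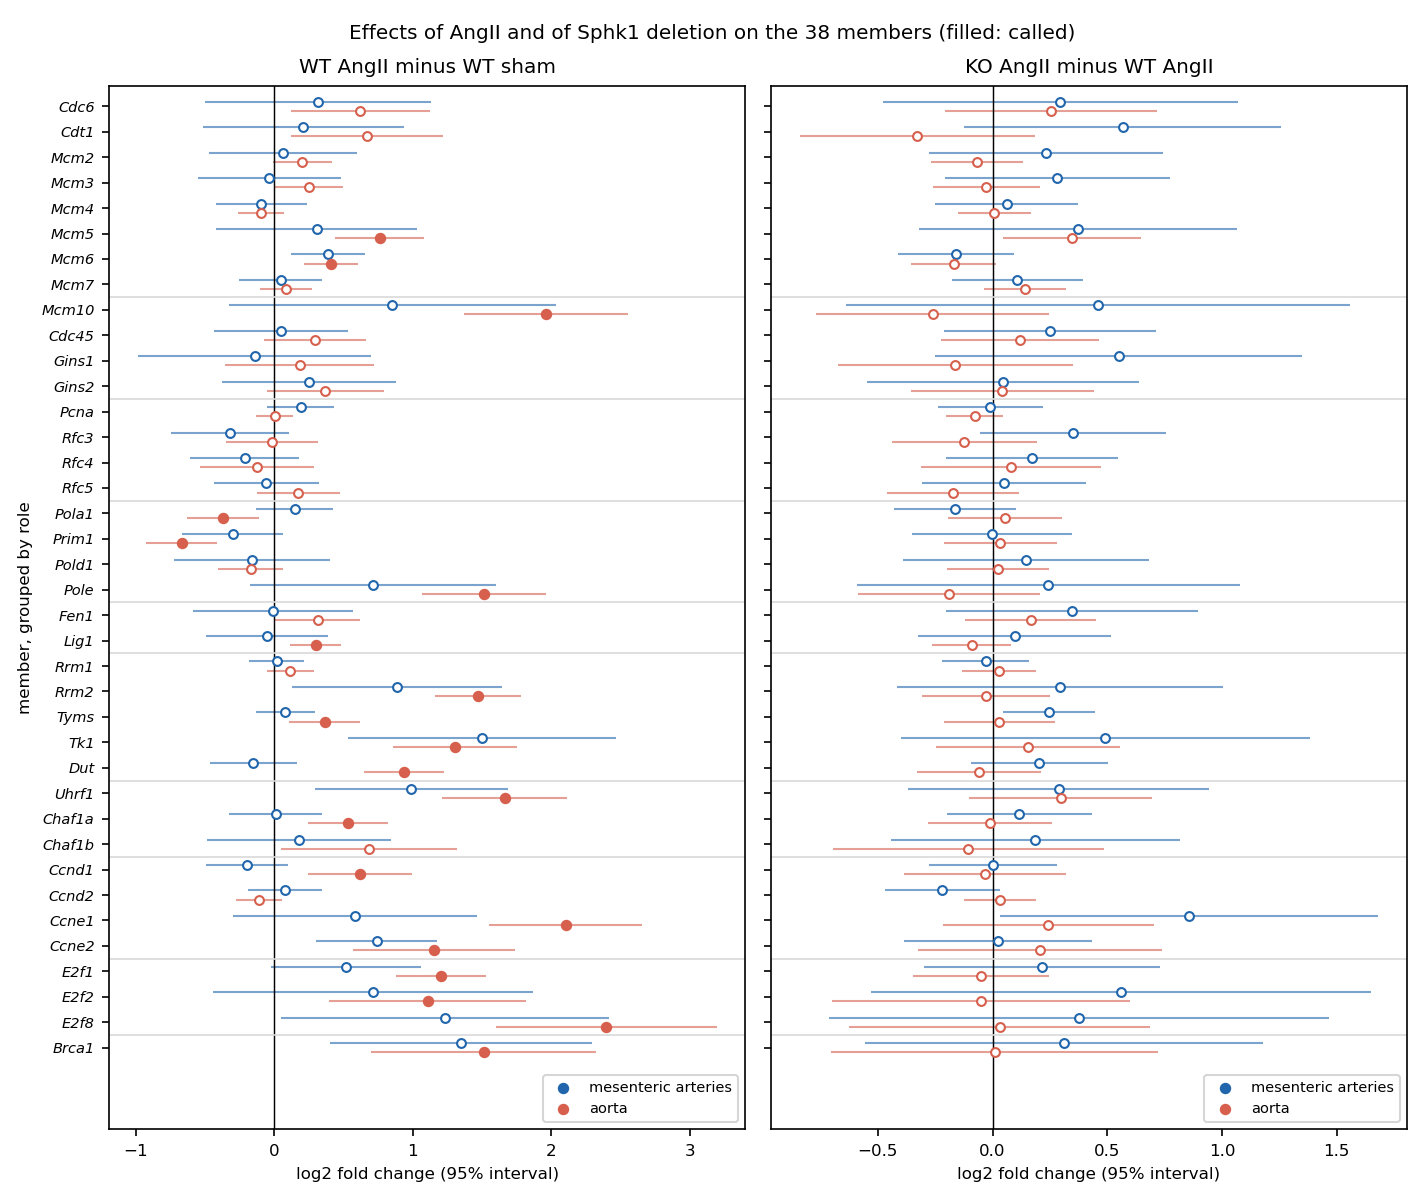
Log2 fold change (horizontal axes) with 95% interval for each of the 38 genes, grouped by role, in mesenteric arteries and aorta, for WT AngII minus WT sham (left) and KO AngII minus WT AngII (right), where filled points passed the test. Filled points appear only for the aorta on the left, 18 right of 0 and 2 left of it, and none appear on the right.

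In mesenteric arteries, 0 members were called after angiotensin II in WT mice, where 0.183% of the 17513 genes tested were called by edgeR, all of them higher. DESeq2 also called 0 members, where it called 1.36% of all genes higher and 0.417% lower. By limma voom 1 member was called higher, where 1.12% of all genes were called higher and 0.303% lower. In edgeR 7 members and 1864 of all genes had an unadjusted p below 0.05. The median log2 fold change of the members was 0.113, with 26 of 38 positive. Tk1 had 4.01, 3.25, 3.11 and 2.81 CPM in WT AngII arteries, against 1.17, 1.07, 1.09 and 1.32 CPM in WT sham arteries. The groups did not overlap, with a log2 fold change of 1.5 ± 0.45 (edgeR adjusted p = 0.252). Uhrf1, at 5.07, 5.3, 4.11 and 3.52 CPM in WT AngII arteries and 2.27, 1.90, 2.31 and 2.56 CPM in WT sham arteries, did not overlap either. Rrm2 had 5.29, 4.24, 2.67 and 4.14 CPM in WT AngII arteries, against 2.44, 2.29, 1.98 and 2.09 CPM in WT sham arteries. Ccne1, with the second largest log2 fold change in the aorta, had 0.946, 1.03, 0.478 and 0.623 CPM in WT AngII arteries and 0.46, 0.457, 0.708 and 0.427 CPM in WT sham arteries, which overlapped. Brca1 stood at 1.35 ± 0.44, E2f8 at 1.23 ± 0.55, Uhrf1 at 0.99 ± 0.32, Rrm2 at 0.89 ± 0.35 and Ccne2 at 0.74 ± 0.20, with edgeR adjusted p of 0.209 to 0.452. In 8 members every WT AngII library lay above every WT sham library and in 2 below, where 4.53% and 4.23% of all genes were so placed. Replicates were more scattered than in the aorta: edgeR's common dispersion was 0.127 for mesenteric arteries and 0.0286 for the aorta. All 10 macrophage markers, all 10 B and T cell markers and all 10 gut and pancreas markers had positive log2 fold changes here. Their medians were 0.865, 1.66 and 0.525, with 0 called, and their part in the members' values was not tested. Without KO AngII replicate 3, which enters this comparison only through the shared estimate of the spread, Tk1 (edgeR adjusted p = 0.00405) and Uhrf1 (edgeR adjusted p = 0.0366) were called. With WT AngII replicate 1 also left out, Tk1 was called (edgeR adjusted p = 0.0127) and Uhrf1 was not (edgeR adjusted p = 0.115). In the same comparison 9 of 24 mitotic genes rose, led by Prc1, Kif20a and Cenpf at 1.83 ± 0.20, 1.96 ± 0.24 and 2.13 ± 0.28, and Ccna2 rose by 1.77 ± 0.27 (edgeR adjusted p = 0.0047, 0.00642, 0.0114 and 0.0218).

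Between KO AngII and WT AngII mesenteric arteries 0 members were called, and 0.00571% of all genes were. DESeq2 and limma voom also called 0, where DESeq2 called 0.00571% of all genes higher and 0.00571% lower and limma voom 0% and 0.00571%. In edgeR 2 members and 872 of all genes had an unadjusted p below 0.05. The median log2 fold change was 0.224, with 32 of 38 positive, and this rested on KO AngII replicate 3. That library had the highest level of its group for 35 of 38 members and a mean log2 CPM over the members of 3.56, against 2.51 to 2.79 in the other 4. For Tk1 the KO AngII libraries held 3.15, 2.68, 11.5, 2.79 and 3.01 CPM, against 4.01, 3.25, 3.11 and 2.81 CPM in WT AngII. For Mcm5 they held 8.72, 8.45, 20.9, 6.08 and 9.41 CPM, against 11, 9.4, 6.82 and 5.88 CPM in WT AngII. Apart from replicate 3, the KO AngII values of both genes lay among or below those of WT AngII. Without it the median was -0.065, with 13 of 38 positive. Without WT AngII replicate 1 as well, it was -0.005, with 19 of 38 positive. The part of the B and T cell and macrophage RNA of KO AngII replicate 3 in these values was not tested. With all libraries, all 10 B and T cell and 9 of 10 macrophage markers had positive log2 fold changes (medians 1.76 and 0.83). Of the gut and pancreas markers 1 of 10 did (median -0.357). In these lists 0 markers were called, and their part was not tested either. No member had all its KO AngII libraries above or below all WT AngII libraries, where 0.611% and 1.04% of all genes did. Of 38 members, 26 had a 95% interval within a 2-fold change either way, as did 76.1% of all genes tested.

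**Figure D5:**
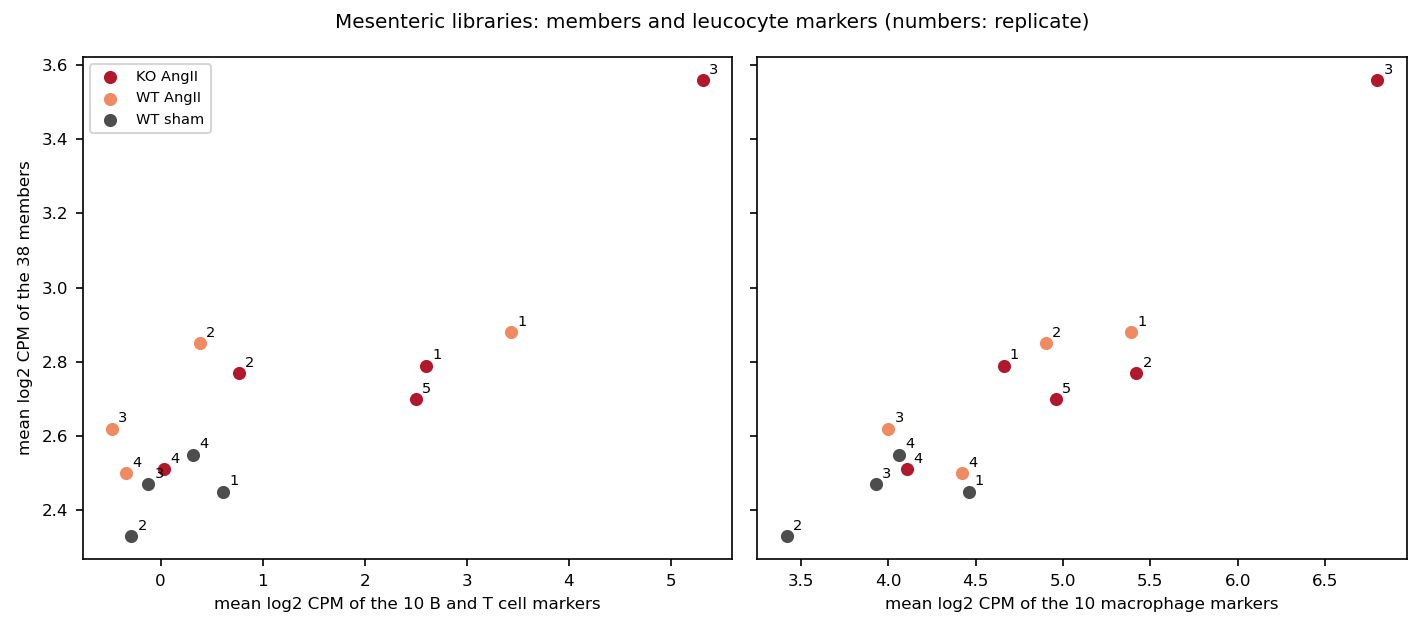
Mean log2 CPM of the 38 members (vertical axis) against the mean log2 CPM of 10 B and T cell markers (left) and of 10 macrophage markers (right), 1 point for each mesenteric library of KO AngII, WT AngII and WT sham mice, with replicate numbers. KO AngII replicate 3, at 3.56 on the vertical axis, lies apart from the other 12 libraries on all 3 measures.

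KO AngII mesenteric arteries set against WT sham arteries gave 0 calls, where 0.708% of all genes were called, 0.457% higher and 0.251% lower. The libraries are shared with both comparisons above. In 9 members every KO AngII library lay above every WT sham library and in 0 below, where 3.22% and 3.68% of all genes were so placed. DESeq2 called 9 members and limma voom 4, all of them higher, where DESeq2 called 5.12% and limma voom 1.5% of all genes fitted higher. Further, 13 members and 3347 of all genes had an unadjusted p below 0.05 in edgeR. All 10 B and T cell markers, all 10 macrophage markers and 9 of 10 gut and pancreas markers had positive log2 fold changes here. Their medians were 3.51, 1.68 and 0.208, with 0 called by edgeR, and their part in the members' values was not tested. Tk1 had a log2 fold change of 1.99 ± 0.44 (edgeR adjusted p = 0.0612) beside 1.5 in WT AngII. Uhrf1, at 1.28 ± 0.31, and Ccne2, at 0.76 ± 0.19, also lay near the threshold (edgeR adjusted p = 0.0776 and 0.0876). Without KO AngII replicate 3, Tk1 stood at 1.33 and Uhrf1 at 0.894, and both were called (edgeR adjusted p = 0.0058 and 0.0452). With WT AngII replicate 1 also left out, not both calls were kept.

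The response to angiotensin II was compared between the tissues in 1 fit over all 26 libraries. For 1 of 38 members, Dut, the response differed, where 2.34% of all 18520 genes were called. This count is near the share of all genes. The mesenteric minus aorta difference of Dut was -1.10 ± 0.20 on the log2 scale (edgeR adjusted p = 0.00298). Dut had 10.7, 8.58, 10 and 11 CPM in WT AngII and 10.9, 10.5, 13.4 and 9.97 CPM in WT sham mesenteric arteries, which overlapped. In the aorta it had 26.5, 35.7, 26 and 26.9 CPM in WT AngII and 16.9, 16.3, 14.3 and 12.7 CPM in WT sham, with no overlap. The difference was positive for 5 of 38 members, with a median of -0.319, and for 9030 of all 18520 genes, with a median of -0.009. In the same test 0 of 10 fibroblast markers were positive and 3 were called lower (median -0.52), while all 10 smooth muscle markers were positive with 0 called (median 0.50). The part of these markers in the members' differences was not tested. Ccnd1 (-0.83 ± 0.23) and Ccne1 (-1.53 ± 0.47) were nearest to the threshold (edgeR adjusted p = 0.0561 and 0.0831). For Tk1 the difference was 0.18 ± 0.49, with an interval of -0.82 to 1.19. No member was called for a tissue difference of the KO effect, where 0% of genes were called by edgeR. DESeq2 and limma voom each called 0 members, where DESeq2 called 0.0216% of all genes higher and 0.0594% lower and limma voom 0%. In edgeR 1 member and 749 of all genes had an unadjusted p below 0.05.

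Between the WT sham groups, mesenteric arteries had 4 members higher than the aorta and 3 lower. Of all genes, 20.7% and 17.7% were so called by edgeR. The log2 differences come from the fit over all 26 libraries, while the CPM were scaled within each tissue. Ccnd1 had 139, 143, 170 and 140 CPM in mesenteric arteries, against 32.9, 25.9, 27.6 and 23.5 CPM in the aorta, a log2 difference of 2.33 ± 0.17 (edgeR adjusted p = 1.26e-10). Per kilobase it had the highest mean of the members in WT sham mesenteric arteries, at 31.4 ± 3.1 CPM (SD, n = 4). This lay within the spread of Ccnd2, at 29.5 ± 3.08 CPM (SD, n = 4). Uhrf1 had 2.27, 1.90, 2.31 and 2.56 CPM in mesenteric arteries, against 1.14, 1.14, 1.12 and 1.11 CPM in the aorta. Fen1 had 5.84, 4.65, 7.32 and 6.13 CPM in mesenteric arteries, against 3.79, 2.95, 3.10 and 3.47 CPM in the aorta, and Mcm5 had 6.41, 5.68, 6.51 and 8.15 CPM, against 4.19, 3.54, 3.93 and 3.11 CPM. No values overlapped for these 4 genes, and the log2 differences of Uhrf1, Fen1 and Mcm5 were 0.91 ± 0.28, 0.75 ± 0.21 and 0.76 ± 0.26 (edgeR adjusted p = 0.0111, 0.00606 and 0.0249). Mcm6 was lower, at 38.6, 39.0, 49.1 and 42.8 CPM, against 67.1, 77.8, 74.1 and 70.9 CPM in the aorta, a log2 difference of -0.87 ± 0.11 (edgeR adjusted p = 9.61e-07). Gins2 had 1.59, 1.56, 1.7 and 1.98 CPM in mesenteric arteries, against 2.13, 3.35, 3.28 and 2.32 CPM in the aorta. Dut and Gins2 had log2 differences of -0.52 ± 0.14 and -0.79 ± 0.25 (edgeR adjusted p = 0.00423 and 0.0134). Endothelial markers were higher in mesenteric arteries for 9 of 10 (median log2 difference 2.15), with sums of 3990 to 4290 CPM in the mesenteric arteries and 981 to 1120 CPM in the aortas. Macrophage markers were lower for 4 of 10 (median -1.09), with sums of 221 to 427 CPM in the mesenteric arteries and 574 to 701 CPM in the aortas. Gut and pancreas markers were higher for 9 of 10, with sums of 54.5 to 35900 CPM and 14.5 to 18.3 CPM, and B and T cell markers for 2 of 10. Adipocyte markers were lower for 3 of 10, fibroblast markers higher for 2 and lower for 4, and smooth muscle markers higher for 1 and lower for 2. The part of these markers in the members' differences was not tested. The Mcm5 call was lost without aorta WT sham replicate 2 or 4 or mesenteric WT sham replicate 4 (edgeR adjusted p of up to 0.0841). Annotated genes on the opposite strand cover 78.8% of the exon bases of Fen1 and 67.3% of those of Gins2. With no strand setting stated, how reads in the overlaps were counted is not known.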

How the data were processed

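Gene counts were made by the authors and deposited as 1 HTSeq table per library; per the submitters' processing notes, reads were trimmed with cutadapt, aligned with HISAT2 to GRCm39 and counted with HTSeq, with versions, annotation and strand setting not given in the sources used here. Per the labels' protocols, poly(A) RNA was prepared with a directional kit and sequenced in read pairs. HTSeq's summary lines stayed out of library sizes; reads not aligned were 0.5717 to 14.7%, reads without a feature 6.635 to 11.12% and reads aligned more than once 4.816 to 12.99% of each table. Symbols came from a table of GRCm38 gene names, which named 52083 of 55416 identifiers. Members and lists were chosen with earlier results of these data known. All 38 members may be named; the rule gives values per library for the 4 (or fewer) strongest calls by adjusted p in each direction, for members called against the majority and for the most abundant member of each role; values of other members were added where the text turns on them. Of other lists, at most 3 genes per direction are named.

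From the deposited counts, edgeR 4.0.16 (R 4.3.3) fitted robust quasi-likelihood models with TMM factors and filterByExpr, 1 for each tissue (3 groups, 13 libraries) and 1 for all 26 libraries, adjusted over all genes tested and called below 0.05. Levels are CPM over effective library sizes, scaled within each tissue, and log2 CPM uses a prior count of 2. DESeq2 1.42.0, limma 3.58.1 (voom with sample weights), other scalings and filters (at least 1 CPM in 4 libraries, or any gene with 1 count), a replicate block and leaving out libraries were alternatives. The fits were tested on simulated data. The SE of a log2 fold change was its absolute value divided by the square root of the F value of the quasi-likelihood test. The 95% intervals were built on this SE, so both are approximate. Replicates differed beyond sampling noise. The labels do not say whether both tissues came from the same mice, and libraries were taken as independent. The p-values set differences between groups against the spread between libraries. Exon lengths are unions from GENCODE M21 (GRCm38), while the authors' build is GRCm39. Without a stated strand setting, how reads over members and overlapping genes on the opposite strand were counted is not known. In this annotation such genes cover 78.8% of the exons of Fen1, 67.3% of Gins2, 52.5% of Chaf1a and 23.4% of Ccnd1. Pcna and Tyms have pseudogene copies that can take reads.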

Additional observations from a re-analysis of the deposited data

Results flagged for a closer look

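Of 228 sets of values (38 members in 6 groups), 23 held a library farther from the others than expected at a rate of 1 in 20, which would give 11.4 sets by chance. In mesenteric KO AngII replicate 3, 12 members were high: Cdt1 at 8.13 CPM (2.52 to 3.53 in the other 4 libraries), Chaf1b at 4.13, E2f2 at 11.2, Fen1 at 13.1, Gins1 at 2.94, Mcm10 at 3.36, Mcm5 at 20.9, Mcm7 at 27.2, Pole at 7.92, Rfc3 at 10.5, Tk1 at 11.5 and Uhrf1 at 10.7 CPM. The mean log2 CPM over the 38 members was flagged in the same library, at 3.56. In mesenteric KO AngII replicate 4 Mcm6 was low, at 39.4 CPM (49.9 to 53.8 in the others). Mesenteric WT AngII held Fen1 at 7.79 CPM in replicate 1 and Cdc6 at 1.25 CPM, low, in replicate 4. Mesenteric WT sham replicate 3 held Ccnd1 at 170 CPM, Ccne1 at 0.708 and Pola1 at 11.5 CPM. In the aorta the high values were Ccnd1 at 50.7 and Pold1 at 16.8 CPM in KO AngII replicate 1, Mcm2 at 10.3 CPM in WT AngII replicate 1, Dut at 35.7 CPM in WT AngII replicate 2 and Lig1 at 11 CPM in WT sham replicate 3.

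Dut also differed between the tissues in its response to angiotensin II, by -1.10 on the log2 scale (mesenteric minus aorta), tested as an interaction over all 26 libraries (edgeR adjusted p = 0.00298). The same test called 2.34% of all 18520 genes. Without WT AngII replicate 2 of the aorta, the library with 35.7 CPM, the difference was -0.983 (edgeR adjusted p = 0.0069).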

How the results depend on the processing

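Members called in the WT aorta after angiotensin II numbered 20, and 16 to 21 under 8 other settings and without each library in turn; KO AngII against WT sham aortas gave 19, then 16 to 25 and 16 to 22. The 25 came from limma voom, 23 higher and 2 lower, where it called 21.8% of all genes higher and 20.5% lower. In the WT aorta limma voom called 18.1% of all genes higher and 15.9% lower, and DESeq2 16.2% and 12.4%. No result changed direction with a call. With library size alone as the scaling, the median of all genes in the WT aorta moved to -0.126, the split of all genes to 1747 higher and 3729 lower, against 2475 and 1826, and members to 16 higher and 4 lower (Pold1 and Ccnd2 besides Prim1 and Pola1). When 1 library was left out, calls were lost for Tyms, Pola1, E2f2, Ccnd1 and Lig1 in the WT aorta, for Ccnd1, E2f2, Fen1 and Tyms in KO AngII against WT sham aortas and for Mcm5 between sham tissues. In WT mesenteric arteries 1 member was called by limma voom, with only the 2 groups fitted and without 2 libraries, and 0 to 2 without each library. KO AngII against WT sham mesenteric arteries gave 9 by DESeq2, 4 by limma voom, 1 without 2 libraries and 0 to 2 without each library. The tissue difference of the response gave 2 by DESeq2, 3 by limma voom and 1 to 2 without each library, Ccnd1 joining Dut; without aorta WT AngII replicate 2 or 3, aorta WT sham replicate 1, or mesenteric KO AngII replicate 3 or 4 it was 2. For this difference DESeq2 called 1.74% of all genes higher and 2.92% lower, and limma voom 2.9% and 3.85%. WT sham mesenteric arteries against aorta gave 6 to 8 without each library. By limma voom they gave 13, 9 higher and 4 lower, where 26.3% of all genes were called higher and 23.1% lower. The cause was not tested. KO against WT AngII stayed at 0 in every setting in both tissues. With the replicate block, 18 members were called in the WT aorta, 20 in KO AngII against WT sham aortas, 0 in all 3 mesenteric comparisons, 6 between sham tissues and 1 for the tissue difference. The numbers were not taken as pairs, since the labels do not say whether they mark the same mouse. In deviations from group means, 1 of 12 same-numbered pairs correlated above 0.1 in the aorta (-0.289 to 0.102). In mesenteric arteries 7 of 12 did (-0.265 to 0.343, median 0.12, against 0.0135 for different numbers). Across tissues 4 of 13 did (-0.129 to 0.198, median 0.0606, against -0.0297), and 6 of 13 libraries correlated best with their own number. These correlations cannot exclude that same-numbered libraries of both tissues share mice. Members under 1 CPM in WT sham aortas, such as Ccne1, Mcm10, E2f8 and Brca1, rest on few reads.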
